A study of Mus musculus with 2 samples.

Results

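The S100 genes encode small calcium-binding proteins, and 10 of them are described here in the lungs of Pclaf WT and Pclaf KO mice after bleomycin: S100a4, S100a6, S100a8, S100a9, S100a10, S100a11, S100a13, S100a14, S100a16 and S100g. They are 10 of the 31053 genes in the count matrices and were picked by symbol, with earlier results of the same data known, among them lower S100a6 and S100a14 in cycling epithelial cells of the Pclaf KO library. Those values chose the genes, so every difference between the libraries given here for a member is a description and supports nothing.

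Pclaf encodes a clamp-associated factor that is made in dividing cells. Lung cells were taken 1 week after bleomycin, given at 1.35 U/kg by the deposited description, from mice aged 8 to 10 weeks that were either Pclaf WT or carried a germline knock-out of Pclaf, and both groups received bleomycin. The cells had been sorted as Cd31-, Cd45- and Epcam+, that is, without the endothelial and blood-cell markers and with the epithelial one, and were sequenced with 10x 3' chemistry as 1 library per genotype. How many mice went into a library is not given in the sources used here, and the study's methods name male mice.

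S100 proteins carry a pair of EF-hands, the loops that hold calcium, and most work as dimers. When calcium binds, a surface opens to which partner proteins such as annexins attach, so the family links calcium signals to membranes and the cytoskeleton. Some members are released and act outside the cell, where the receptor Ager and Tlr4 recognise them. In the lung, S100a8 and S100a9 are known as proteins of neutrophils, and S100g as a product of alveolar type 2 (AT2) cells.

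Of the members, 9 lie on chromosome 3 of GRCm38 and S100g lies on the X chromosome. On chromosome 3, 7 members lie between 90514435 and 90695721, with S100a3, S100a5 and S100a7a between some of them. S100a13 ends 2274 bases before S100a14, and S100a11 and S100a10 stand apart, 2824766 bases further on. The promoters of 5 members are shown because their genes shared a pattern across cell classes or stood alone: S100a6 and S100a11, high in Krt8-high and AT1-like cells, S100a8 and S100a9, high in neutrophils, and S100g of AT2 cells. Each runs from 250 bases before to 50 after the annotated start, 5' to 3' on the gene's strand, from RefSeq on GRCm38.p6, where 8 of the 10 members have an entry. Capitals mark matches, on either strand, to TATAAA (the TATA box, in 13.6% of 32851 promoters of this length), TGANTCA (AP-1, 7.81%), TTGCNNAA (C/EBP, 10.8%) and TTTGAA (the cell cycle element CHR, 17.9%), none of which overlap another here.
S100a6, chr3:90612644-90612943, + strand: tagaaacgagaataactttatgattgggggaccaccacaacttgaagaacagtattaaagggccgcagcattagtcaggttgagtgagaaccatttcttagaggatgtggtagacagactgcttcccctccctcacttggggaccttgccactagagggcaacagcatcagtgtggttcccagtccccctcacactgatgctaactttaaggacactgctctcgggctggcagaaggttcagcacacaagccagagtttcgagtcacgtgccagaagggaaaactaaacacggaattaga
S100a11, chr3:93520246-93520545, + strand: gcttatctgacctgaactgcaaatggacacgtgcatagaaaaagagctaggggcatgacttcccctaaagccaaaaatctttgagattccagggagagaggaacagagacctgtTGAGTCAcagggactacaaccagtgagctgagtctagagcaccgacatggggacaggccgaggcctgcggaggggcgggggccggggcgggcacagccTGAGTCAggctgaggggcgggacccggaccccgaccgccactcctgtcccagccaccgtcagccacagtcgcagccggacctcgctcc
S100a8, chr3:90668821-90669120, + strand: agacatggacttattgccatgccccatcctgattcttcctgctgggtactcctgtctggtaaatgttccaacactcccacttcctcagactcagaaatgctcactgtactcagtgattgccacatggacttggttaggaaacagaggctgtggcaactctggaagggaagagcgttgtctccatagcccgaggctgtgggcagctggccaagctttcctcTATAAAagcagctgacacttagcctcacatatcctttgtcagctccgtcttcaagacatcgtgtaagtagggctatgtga
S100a9, chr3:90695672-90695971, - strand: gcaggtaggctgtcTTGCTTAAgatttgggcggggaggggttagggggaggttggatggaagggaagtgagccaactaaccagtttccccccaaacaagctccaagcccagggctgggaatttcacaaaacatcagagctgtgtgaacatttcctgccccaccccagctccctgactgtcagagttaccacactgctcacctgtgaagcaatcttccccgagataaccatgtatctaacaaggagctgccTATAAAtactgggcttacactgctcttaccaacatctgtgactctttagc
S100g, chrX:162964550-162964849, - strand: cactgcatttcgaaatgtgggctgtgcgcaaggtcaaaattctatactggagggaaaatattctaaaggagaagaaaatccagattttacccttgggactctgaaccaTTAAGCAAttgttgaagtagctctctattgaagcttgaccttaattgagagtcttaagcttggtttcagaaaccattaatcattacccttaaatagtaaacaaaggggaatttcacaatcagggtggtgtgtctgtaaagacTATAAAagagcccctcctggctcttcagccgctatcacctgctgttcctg
The S100a6 window held none of the 4 motifs. The S100a11 window held 2 AP-1 matches, both before the start. S100a8 had a TATA match at -30, whereas S100a9 and S100g had theirs at the annotated start itself and 1 C/EBP match each, at -236 and -142. These are matches of letters only.

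The contents of the libraries went against the sort. Of the kept cells, 3.27% of the Pclaf WT cells and 60.9% of the Pclaf KO cells had epithelial markers, and 40.7% and 3.54% had immune ones. The Pclaf WT library held 98171818 UMIs (unique molecules) and the Pclaf KO library 111267567, with a median of 2127 and 5957 per kept cell, and 163 barcodes occurred in both. Pclaf itself was at 6.184 CPM (counts per 1000000 UMIs) in Pclaf WT epithelial cells and at 4.753 in Pclaf KO cells, so its count does not separate the libraries. With 1 library per genotype no test between genotypes was possible, and all 95% intervals, exact for Poisson sums and binomial shares, cover counting error only. A difference in genotype cannot be told apart from a difference between the 2 libraries.

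Cells were assigned to classes by marker genes, none of them an S100 gene, and are called X-like for that reason. In Pclaf WT and Pclaf KO there were 193 and 2651 AT2-like cells, 265 and 3404 activated AT2-like cells (AT2 with at least 2 of Lcn2, Lrg1, Il33, Orm1 and Saa3 on), 141 and 778 Krt8-high transitional-like cells, 86 and 463 AT1-like cells, and 23 and 251 cycling epithelial-like cells. AT2 cells make surfactant and can become the flat AT1 cells, by way of a Krt8-high state, after injury. AT1-like cells had a median of 3 of the 9 Krt8-high markers on, in both libraries, and so had ciliated-like cells. These markers are thus not confined to Krt8-high cells. At the smallest number of markers that the gate accepts were 13.5% and 13.4% of Krt8-high cells, 20.9% and 13.4% of AT1-like cells, and 30.4% and 32.3% of cycling cells.

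S100a6, S100a10, S100a11 and S100a14 were higher in Krt8-high and AT1-like cells than in AT2-like cells, in both libraries. S100a6, or calcyclin, a cytosolic protein first found as a growth-related transcript, was at 7610 CPM (7425 to 7798) in Krt8-high cells of Pclaf WT and 6337 in Pclaf KO, and at 8004 and 6278 CPM in AT1-like cells, against 432.1 and 393.2 CPM in AT2-like cells. The log2 ratio of Krt8-high over AT2-like cells was 4.14 in Pclaf WT and 4.01 in Pclaf KO. Among the classes with at least 50 cells, 27 in Pclaf WT and 15 in Pclaf KO, S100a6 was first in AT1-like, then Krt8-high cells in Pclaf WT and in the reverse order in Pclaf KO. The log2 ratio of AT1-like over Krt8-high cells was 0.073 (0.010 to 0.135) in Pclaf WT and -0.014 (-0.040 to 0.013) in Pclaf KO. Activated AT2-like cells were last of the classes with at least 50 cells in both libraries, with 192.3 and 129.1 CPM, while the 40 aerocyte capillary-like cells of Pclaf KO, below that size, had 60.06 CPM.

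S100a14, a divergent member made mainly in epithelia, rose about as much as S100a6. It was at 352.8 CPM in Krt8-high cells of Pclaf WT and 300 in Pclaf KO, and at 15.58 and 18.5 CPM in AT2-like cells, which gives log2 ratios of 4.50 and 4.02. AT1-like cells had 148.1 and 137.1 CPM. Outside the epithelium it reached at most 44.55 CPM (17 UMIs), in alveolar macrophage-like cells of Pclaf KO, and 57.7% of its UMIs in Pclaf WT and 91.5% in Pclaf KO lay in epithelial cells. Basal-like cells of Pclaf KO, with 207.1 CPM, came second there, and Pclaf WT had too few of them (6 cells) to rank.

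S100a10, the partner of annexin A2 that works without binding calcium, and S100a11, a binder of annexin A1, had the same first class. S100a10 was at 1802 and 1665 CPM in Krt8-high cells and at 248.3 and 210.3 CPM in AT2-like cells, with log2 ratios of 2.86 in Pclaf WT and 2.99 in Pclaf KO. S100a11 was at 4310 and 4269 CPM in Krt8-high cells and 786.3 and 699.3 CPM in AT2-like cells, with log2 ratios of 2.45 and 2.61. Unlike S100a10, S100a11 was also high in ciliated-like cells, with 2672 CPM in Pclaf WT and 2790 in Pclaf KO, where S100a10 had 220.2 and 164.7 CPM. Krt8-high over AT2-like, 6 members were higher past 2-fold in Pclaf WT, where 27.6% of all genes were, and 8 in Pclaf KO, where 34.8% were. The 6 were S100a6, S100a10, S100a11, S100a13, S100a14 and S100a16, and Pclaf KO had S100a4 and S100a8 in addition, the latter on 11 UMIs in Krt8-high cells. S100g was the 1 member lower past 2-fold in Pclaf KO (7.56% of genes), and S100a8 the 1 in Pclaf WT (9.2%), on 2 and 8 UMIs, with a log2 ratio of -1.82 (-5.09 to 0.51). In Pclaf WT S100g was at -0.81, with 398 of its 628 UMIs in Krt8-high cells from 1 cell. AT1-like over AT2-like, 6 members were higher past 2-fold in Pclaf WT, where 25.3% of genes were, and 7 in Pclaf KO, where 25.9% were, with S100a6 at log2 ratios of 4.21 and 4.00 and S100a14 at 3.25 and 2.89. Lower past 2-fold were S100a4 and S100g in Pclaf WT (10.3% of genes) and S100g in Pclaf KO (11.2%).

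S100a13, which travels with Fgf1 when it is released, and S100a16, a widely made member, were led by endothelial cells. S100a13 was at 346.6 CPM in general capillary-like cells of Pclaf WT and 374.9 in Pclaf KO, and S100a16 at 387.2 and 384.5 CPM. Within the epithelium both again rose from AT2-like to Krt8-high cells, S100a13 from 123.6 to 312.6 CPM in Pclaf WT and from 109.2 to 297.4 in Pclaf KO, and S100a16 from 46.74 to 148.7 and from 40.28 to 115.1 CPM. Over the 13 classes with at least 50 cells in both libraries, the levels of S100a6, S100a10 and S100a16 had a Spearman correlation of 0.962 between libraries, S100a13 of 0.945, S100a11 of 0.918, S100a4 of 0.907, S100g of 0.813 and S100a14 of 0.643. S100a8 and S100a9 had -0.484 and -0.149, so their order over these 13 classes did not repeat. Neutrophil-like cells, which led both genes in both libraries, were not among the 13, since Pclaf KO had only 36 of them. The 13 points share gate and library, and no p is given.

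**Figure D1:**
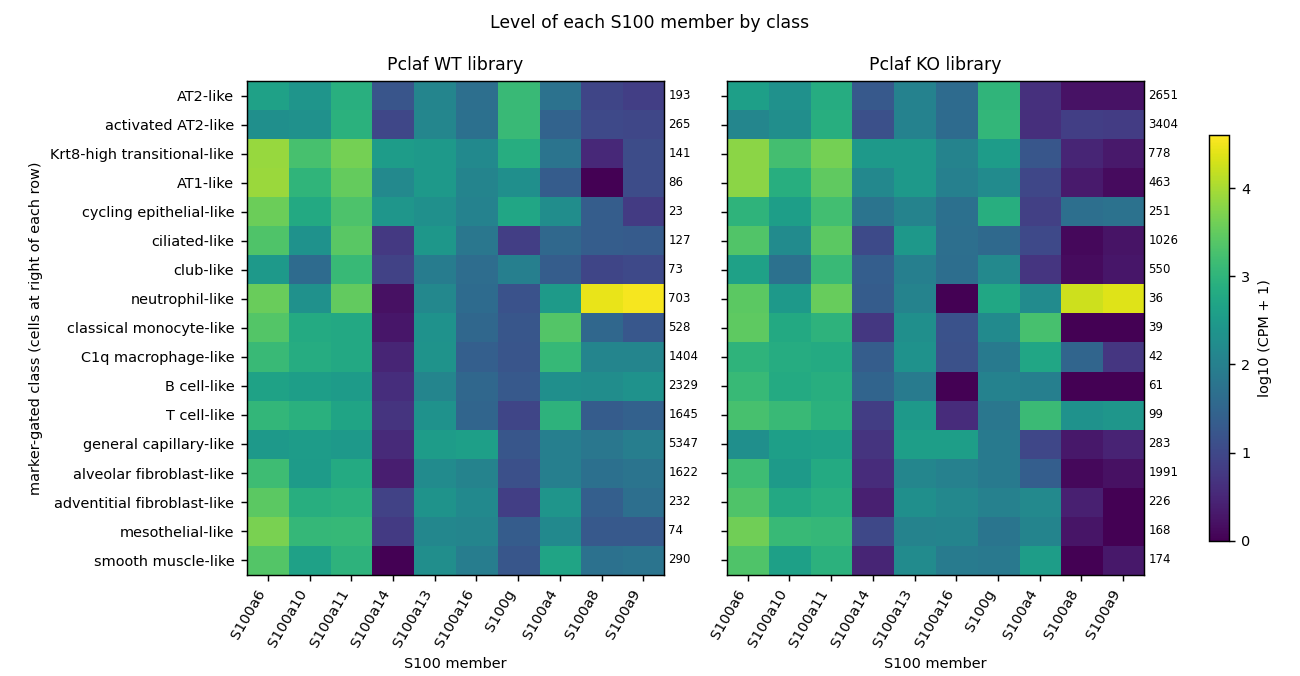
Heat map of the level of each S100 gene, as log10(CPM + 1) in color, for marker-gated classes (vertical axis, with the number of cells at the right) and genes (horizontal axis) in the Pclaf WT and Pclaf KO libraries. Among the alveolar classes S100a6, S100a10, S100a11 and S100a14 are brighter in Krt8-high and AT1-like than in AT2-like cells, S100g is brightest in both AT2-like classes, and S100a8 and S100a9 in neutrophil-like cells.

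Within AT2-like and activated AT2-like cells, S100a6 rose with the number of Krt8-high markers on in the cell. In Pclaf KO it went from 68.77 CPM in the 1716 cells with 0 markers through 104.3 with 1, 179.2 with 2, 412.2 with 3 and 594 with 4 to 1444 CPM in the 167 cells with 5 or more. In Pclaf WT it went from 134.8 CPM in 124 cells through 157.2, 286.7 and 305.5 to 1291 with 4 markers, and stood at 578 CPM in the 8 cells with 5 or more. S100a14 followed in Pclaf KO, from 5.387 to 80.61 CPM, and so did S100a10, from 153.5 to 505, and S100a11, from 546.3 to 1670. S100a13 and S100a16 rose there too, from 90.99 to 172.7 and from 30.22 to 65.64 CPM. In Pclaf WT, S100a11 went from 553.1 to 1454 CPM, while S100a14 rested on 0 to 11 UMIs a step. S100a10 was uneven in Pclaf WT, with 180.8 CPM at 0 markers, 198.9 at 3, 381.3 at 4 and 297.8 at 5 or more. S100a13 and S100a16 were uneven there as well. S100g did not follow: it lay between 1023 and 1177 CPM over the 6 steps in Pclaf KO and between 1121 and 1587 in Pclaf WT. The median UMIs per cell also rose over the steps, from 6539 to 9693 in Pclaf KO and from 4998 to 6171 in Pclaf WT, and their part in this was not tested.

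**Figure D2:**
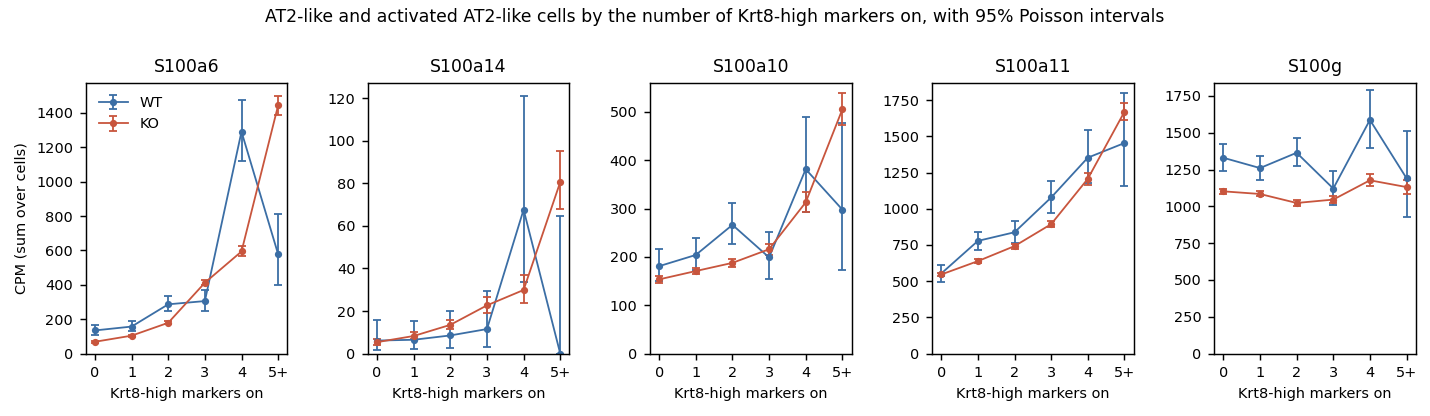
Level (CPM, linear axes from 0, bars for 95% Poisson intervals) of 5 S100 genes in AT2-like and activated AT2-like cells, by the number of Krt8-high markers on, for Pclaf WT and Pclaf KO. S100a6, S100a10, S100a11 and S100a14 climb over the steps in Pclaf KO, S100g stays between 1023 and 1177 CPM there, and the last Pclaf WT point rests on 8 cells.

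S100g, or calbindin-D9k, a calcium buffer best known from the gut, where vitamin D raises it, had the opposite pattern. It was at 1305 CPM in activated AT2-like cells of Pclaf WT and 1108 in Pclaf KO, at 1296 and 1031 CPM in AT2-like cells, and at 198.4 and 163.7 CPM in AT1-like cells. The log2 ratio of AT1-like over AT2-like cells was -2.71 in Pclaf WT and -2.65 in Pclaf KO. Thinned to 1000 UMIs per cell, 52.3% of AT2-like cells in Pclaf WT and 51.6% in Pclaf KO had a UMI of S100g (87% and 87.5% unthinned), at median depths of 4749 and 6611 UMIs. Alveolar fibroblast-like cells, which should lack it, had 0.717% and 3.75%, at 3847 and 5205 UMIs.

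S100g was found in every class of Pclaf KO with at least 20 cells, where it ran together with Sftpc, the surfactant gene of AT2 cells. Over the 17 non-epithelial classes of Pclaf KO its median level was 73.44 CPM, against 14.22 CPM over 23 in Pclaf WT, and the median of Sftpc was 13210 and 1308 CPM. Per 1000 UMIs of Sftpc there were 6.56 UMIs of S100g in AT2-like cells of Pclaf KO and 6.67 in the non-epithelial classes summed, and in Pclaf WT 9.7 and 9.74. The sums hide a spread: per class the ratio ran from 1.48 to 12.1 in Pclaf KO (median 5.79), where alveolar fibroblast-like cells gave 820 of the 1414 S100g UMIs. In Pclaf WT it ran from 5.68 to 31.8 (median 10.3) over the classes with an S100g UMI, which 3 of the 23 lacked. Ciliated-like cells of Pclaf KO, with 36.59 CPM of S100g, had 6.55 per 1000, and in Pclaf WT 5 UMIs of S100g gave 3.51. Krt8-high cells stood above the ratio of AT2-like cells, with 106 per 1000 in Pclaf WT and 22.9 in Pclaf KO, as did club-like cells, with 110 and 20.7, AT1-like cells, with 31.6 and 9.74, and basal-like cells of Pclaf KO, with 24.5. Without the cell richest in S100g these were 38.8 and 21.1, 60.8 and 19.5, 24.2 and 8.22, and 5.39 per 1000.

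**Figure D3:**
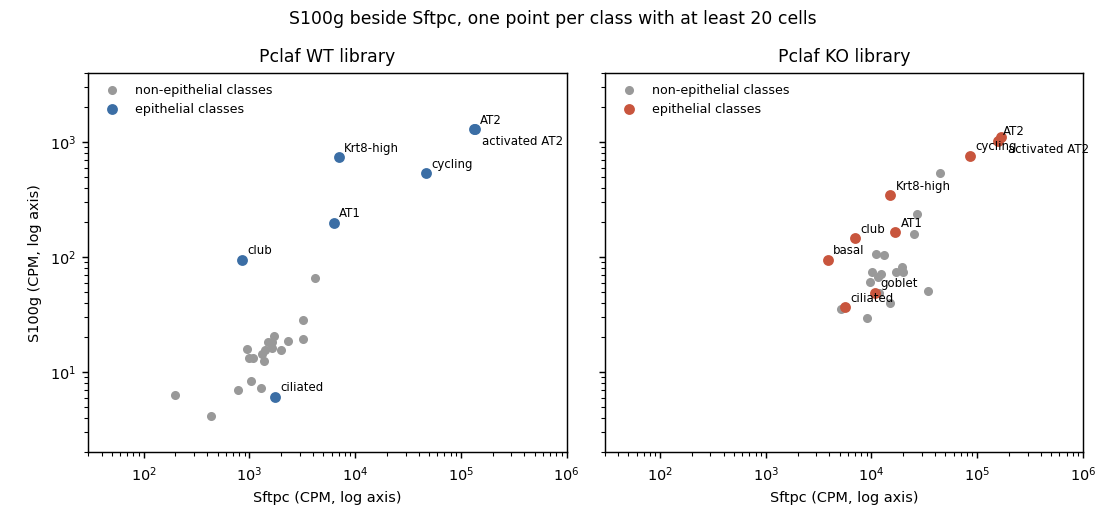
S100g against Sftpc (both in CPM, log axes), 1 point per class and library with at least 20 cells and a UMI of S100g, epithelial classes in color. Non-epithelial classes, in gray, rise with Sftpc, and Krt8-high and club-like cells lie above them at a similar Sftpc level.

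In Krt8-high cells S100g was lower in Pclaf KO, with 740.9 CPM in Pclaf WT and 344.4 in Pclaf KO, but 1 cell held 398 of the 628 UMIs in Pclaf WT. That cell had 8 Krt8-high markers and 0 AT2 markers on. Without the top cell of each library the levels were 276.5 and 316.1 CPM. A UMI of S100g was found in 25 of 141 cells in Pclaf WT and in 180 of 778 in Pclaf KO.

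S100a8 and S100a9, which together form calprotectin, a neutrophil protein released as an alarm signal, were neutrophil genes. S100a8 was at 27850 CPM in the 703 neutrophil-like cells of Pclaf WT and 18040 in the 36 of Pclaf KO, and S100a9 at 34820 and 23830 CPM. In the epithelial classes with at least 20 cells S100a8 lay between 0 and 22.02 CPM in Pclaf WT and 0 and 47.62 CPM in Pclaf KO, and S100a9 between 5.356 and 19.57 and between 0 and 52.12 CPM. There were 1.15 UMIs of S100a9 per UMI of S100a8 in the median class of Pclaf WT (0.346 to 2.04, 19 classes with 20 UMIs of both) and 1.13 in Pclaf KO (0.904 to 1.32, 4 classes). Both genes were lower in AT2-like cells of Pclaf KO, S100a8 at 8.31 CPM in Pclaf WT and 0.7096 in Pclaf KO, and S100a9 at 6.232 and 0.655 CPM, on 8 and 13 and on 6 and 12 UMIs.

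Immune RNA in the epithelial classes also differed between the libraries. The 6 immune lineage markers summed to 86.21 to 289.2 CPM in the epithelial classes of Pclaf WT and to 10.78 to 27.62 CPM in Pclaf KO, and all 6 were seen in AT2-like cells of both. In cycling cells they summed to 289.2 and 16.5 CPM. S100a8 was there at 21.42 and 47.62 CPM and S100a9 at 5.356 and 52.12, in Pclaf KO mostly from 1 cell. Of the 8 neutrophil markers, 3 to 7 were seen in the epithelial classes of Pclaf WT and 2 to 8 in Pclaf KO, summing to 23.81 to 453.8 and 28.86 to 399.7 CPM. In AT2-like cells that sum was 81.02 CPM in Pclaf WT and 75.88 in Pclaf KO, mainly Hdc and Mxd1. Csf3r and Cxcr2 were at 0 there in Pclaf WT and at 0.1092 CPM each in Pclaf KO, against 1527 and 455.2 CPM in neutrophil-like cells of Pclaf WT. The part of immune RNA in the levels of S100a8 and S100a9 was not tested.

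S100a4, or metastasin, which binds non-muscle myosin, was an immune and mesenchymal gene. Among classes with at least 50 cells it led in classical monocyte-like cells of Pclaf WT, with 2326 CPM, and in T-cell-like cells of Pclaf KO, with 1342 CPM (947.3 CPM in Pclaf WT). The 39 classical monocyte-like cells of Pclaf KO had 1809 CPM, and smooth muscle-like cells had 492.1 and 361 CPM. Immune classes held 82.9% of its UMIs in Pclaf WT and 51.3% in Pclaf KO. In AT2-like cells it was at 54.01 CPM in Pclaf WT and 3.33 in Pclaf KO, a log2 ratio of -4.02 (-4.58 to -3.46), beside a sum of immune markers of 101.8 and 10.86 CPM. In Krt8-high cells it was at 57.81 and 16.13 CPM, beside 177 and 20.3 CPM of those markers. S100a4 overlaps Gm42674 on the same strand, so its counts are uncertain by what that gene takes or adds.

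In the 4 other alveolar classes most members stayed within 2-fold between the libraries. The log2 ratio of Pclaf KO over Pclaf WT had a median over the 10 members of -0.23 in AT2-like cells, -0.29 in activated AT2-like cells and -0.25 in Krt8-high cells, and of -0.27 over the 8 members with at least 10 UMIs in AT1-like cells. Over all genes with that minimum the medians were -0.09, -0.15, -0.04 and -0.05. In AT2-like cells 3 members were lower past 2-fold, S100a4, S100a8 and S100a9, where 7.78% of genes were. Activated AT2-like cells had 1 (8.68% of genes), S100a4 at a log2 ratio of -3.15. Krt8-high cells had 3 (6.35%), S100a4, S100a9 and S100g, and AT1-like cells 1 (7.45%), S100a4. None of the 4 classes had a member higher past 2-fold, where 11.1%, 8.2%, 8.75% and 8.49% of genes were. In activated AT2-like cells S100a8 and S100a9 were at log2 ratios of -0.57 and -0.62. Their 177 and 160 UMIs in Pclaf KO lay in 15 and 11 of 3404 cells, and Pclaf WT had 15 and 14 UMIs. Over the alternatives S100a8 ran there from -4.28 to 0.77 and S100a9 from -4.46 to 0.32.

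S100a6 in these classes stayed within 2-fold, with log2 ratios of -0.14 (-0.28 to 0.01) in AT2-like, -0.58 (-0.74 to -0.40) in activated AT2-like, -0.26 (-0.30 to -0.23) in Krt8-high and -0.35 (-0.41 to -0.29) in AT1-like cells. S100a14 was likewise within 2-fold, at 0.25 (-0.49 to 1.10), 0.48 (-0.29 to 1.37), -0.23 (-0.41 to -0.05) and -0.11 (-0.52 to 0.32). With the limits on genes read as UMIs, both passed 2-fold in AT2-like cells, at -1.36 and -1.44, and S100a14 in AT1-like cells, at 1.08. In the airway, 3 members were lower and 2 higher past 2-fold in ciliated-like cells, where 6.62% and 6.92% of genes were, and 3 lower and 1 higher in club-like cells, where 9.64% and 8.8% were. S100a4, S100a8 and S100a9 were the 3 lower members of both. S100a6 was at 2120 and 2240 CPM in ciliated-like cells and at 303.1 and 419.3 in club-like cells. S100a14 in club-like cells was at 7.103 CPM in Pclaf WT and 22.77 in Pclaf KO, on 6 and 177 UMIs, a log2 ratio of 1.68 (0.53 to 3.15).

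**Figure D4:**
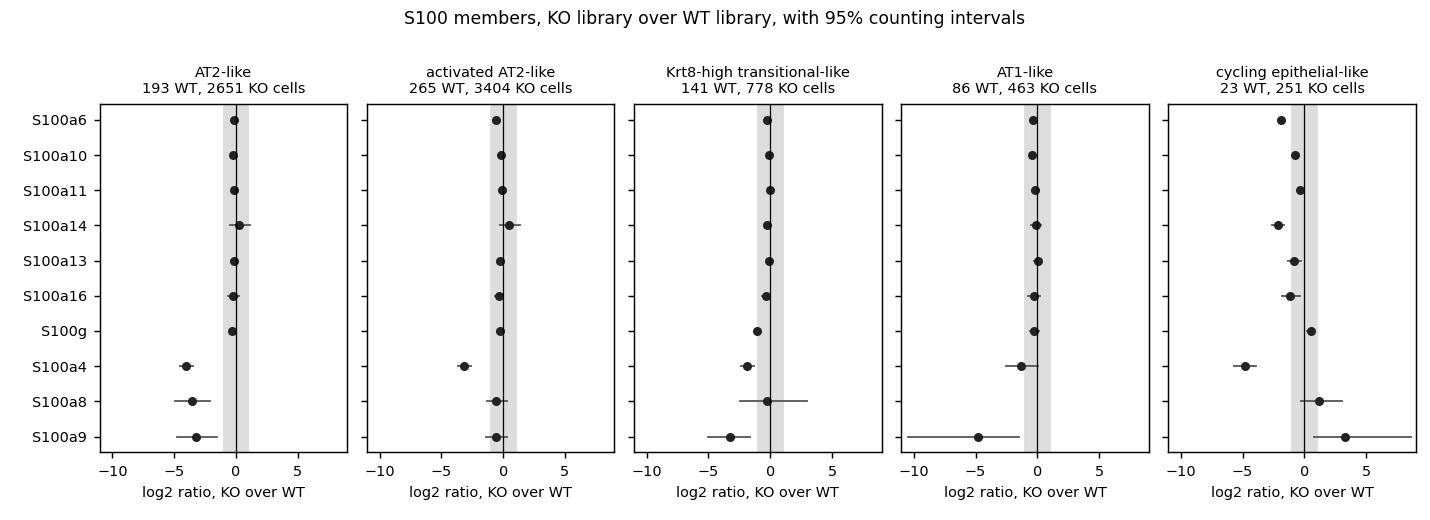
Log2 ratio of Pclaf KO over Pclaf WT (points) with 95% intervals (lines, counting error only) for each S100 gene in the alveolar and cycling epithelial classes, with a gray band for changes within 2-fold. S100a6 and S100a14 lie outside the band in cycling cells and inside it in the other 4 classes, and S100a8 in AT1-like cells, with 0 UMIs in Pclaf WT, has no point.

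In cycling epithelial-like cells, which the choice of members used, S100a6 and S100a14 were lower in Pclaf KO. S100a6 was at 3658 CPM in Pclaf WT (683 UMIs in 23 cells) and 995.5 in Pclaf KO (2655 UMIs in 251 cells), a log2 ratio of -1.88 (-2.00 to -1.75). S100a14 was at 262.4 CPM in Pclaf WT (49 UMIs) and 58.12 in Pclaf KO (155 UMIs), a log2 ratio of -2.17 (-2.65 to -1.68). S100a16 at 107.1 and 48.74 CPM and S100a4 at 176.7 and 6.374 CPM were lower past 2-fold as well, which makes 4 members where 9.64% of all genes were. In Pclaf WT, S100a4 rested on 33 UMIs, 18 of them in 1 cell, and S100a16 on 20 UMIs, 50% of them in 3 cells. S100a10 (626.6 and 371.6 CPM), S100a11 (2105 and 1639) and S100a13 (203.5 and 113.6) were within 2-fold. S100g was at 535.6 CPM in Pclaf WT and 758.5 in Pclaf KO. The median over the 10 members was -0.80, against 0.09 over all genes. Other cycling classes had low medians too. In cycling mesenchymal-like cells (41 and 20 cells) it was -0.81 over 8 members, against -0.01 over all genes. In cycling immune-like cells (619 and 22 cells) it was -0.54 over 9 members, against -0.14.

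The level of S100a6 among cycling cells rested on a few of them in Pclaf WT. The cells of Pclaf WT ran from 0 to 15480 CPM with a median of 296.1, and those of Pclaf KO from 0 to 41850 with a median of 89.44. In Pclaf WT 3 cells held 79.8% of the S100a6 UMIs, and 7 of 23 cells (30.4%) were over 1000 CPM, whereas in Pclaf KO the top 3 held 21% and 43 of 251 cells (17.1%) were over it. S100a14 was found in 7 of 23 cells of Pclaf WT, 3 of which held 85.7% of its UMIs, and in 62 of 251 cells of Pclaf KO. Thinned to 1000 UMIs, 43.5% of cycling cells in Pclaf WT (10 cells, 23.2 to 65.5) and 23.5% in Pclaf KO (59 cells, 18.4 to 29.2) had an S100a6 UMI, against 18.6% and 8.09% of general capillary-like cells, at median depths of 6781 and 9836 and of 2506 and 2702 UMIs. Unthinned, the cycling shares were 82.6% and 58.2%. For S100a14 the thinned shares were 13% (2.78 to 33.6) and 4.38% (2.21 to 7.71), the unthinned ones 30.4% and 24.7%, and the capillary-like cells had 0.119% and 1.1%.

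Cycling cells were then split by the class their other markers gave. Of them, 56.5% in Pclaf WT (13 cells) and 66.9% in Pclaf KO (168 cells) were AT2-like or activated AT2-like, 17.4% (4 cells) and 10.4% (26 cells) Krt8-high or AT1-like, and 17.4% (4 cells) and 20.7% (52 cells) airway-like. Among the AT2-like, S100a6 was at 617.4 CPM in Pclaf WT and 233.1 in Pclaf KO, a log2 ratio of -1.41 (-1.83 to -0.95), and S100a14 at 98.78 and 31.28 CPM, on 8 and 51 UMIs. Among the Krt8-high or AT1-like, S100a6 was at 11510 and 4882 CPM and S100a14 at 833.9 and 284.5. In Pclaf WT 2 of these 4 cells held 444 of 552 S100a6 UMIs and 37 of 40 S100a14 UMIs. Without the 2 richest cells of each library, S100a6 was at 6929 and 4268 CPM and S100a14 at 192.5 and 210.4. That step, chosen after seeing the data, left out 2 of 4 cells in Pclaf WT but 2 of 26 in Pclaf KO. The libraries were thus not trimmed alike, and the levels left cannot be compared between them. Airway-like cycling cells had 1526 and 900.5 CPM of S100a6 and 19.07 and 23.93 CPM of S100a14, the latter on 1 and 16 UMIs. Those of Pclaf WT were all club-like, whereas Pclaf KO had ciliated-, basal- and goblet-like cells in addition, so unlike classes are pooled. The 2 and 5 cells without a class had 187.4 and 2887 CPM of S100a6. Single cells carried several of these levels. In Pclaf WT 2 of the 13 AT2-like cells held 38 of their 50 S100a6 UMIs, and 1 of the 4 airway-like cells held 66 of 80, while in Pclaf KO 1 of the 5 cells without a class held 177 of 180. Without the 2 cells richest in the gene in each library, an alternative chosen after seeing the data, S100a6 in AT2-like cycling cells was at 181 CPM in Pclaf WT and 191.9 in Pclaf KO, and S100a14 at 15.18 and 26.3 CPM, which gives log2 ratios of 0.084 and 0.79. That left out 2 of 13 cells in Pclaf WT but 2 of 168 in Pclaf KO, so Pclaf WT was trimmed more. In Pclaf WT the 2 cells held 7 of the 8 S100a14 UMIs. A change of sign therefore cannot be read from this alternative. Among the AT2-like, S100a10 was at 333.4 and 333.7 CPM and S100g at 1136 and 1104.

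**Figure D5:**
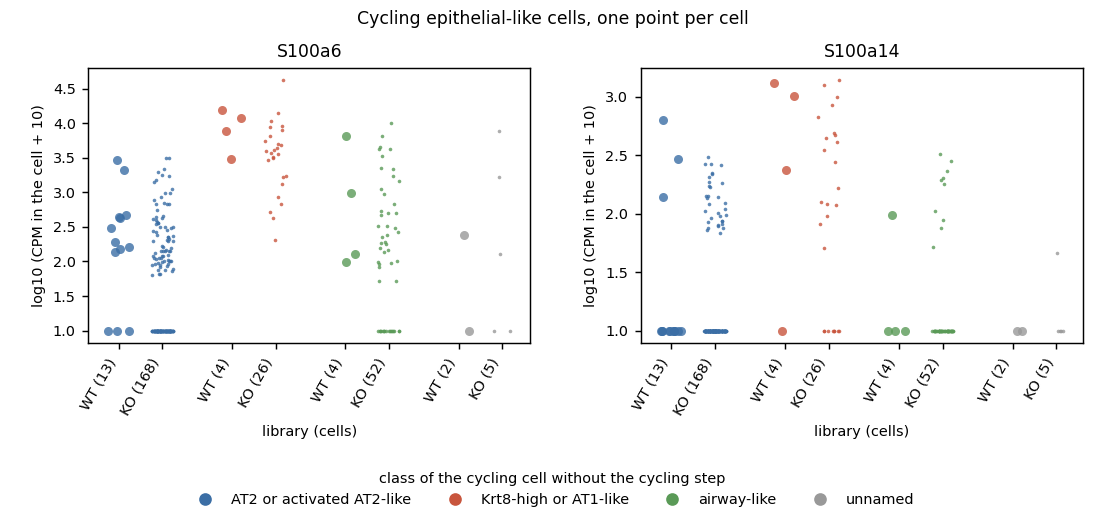
S100a6 and S100a14 in single cycling epithelial-like cells, as log10(CPM + 10), so that cells without a UMI lie at 1, by library and in color by the class of their other markers. Over all classes every Pclaf WT cell lies within the range of the Pclaf KO cells, and the highest Pclaf WT values come from Krt8-high or AT1-like cells.

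The difference in S100a6 also depended on which cells were counted. With cells left out that had a UMI of an immune lineage marker, an alternative chosen after seeing the data that left 12 cells in Pclaf WT and 228 in Pclaf KO, the log2 ratio was -0.53 for S100a6 and -0.86 for S100a14, and with the limits on genes read as UMIs (7 and 33 cells) it was 1.71 for S100a6. The immune markers summed to 289.2 CPM in cycling cells of Pclaf WT and 16.5 in Pclaf KO, with 8 and 1 UMIs of Ptprc, and their part in the difference was not tested.

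S100a8 and S100a9 were higher past 2-fold in cycling cells of Pclaf KO, where 21.6% of genes were, and 1 cell carried nearly all of their UMIs. It held 126 of 127 UMIs of S100a8 and 136 of 139 of S100a9, at 11590 and 12510 CPM, among 7 AT2 markers and 9 cycling markers on. Without the top cell of each library S100a8 had a log2 ratio of -4.96. That leaves out 126 of 127 UMIs in Pclaf KO and 2 of 4 in Pclaf WT, so it rests on too few UMIs to read. In Pclaf WT there were 4 and 1 UMIs.

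Most partners of S100 proteins stayed within 2-fold. Of 14 partners and receptors, 1 was lower past 2-fold in cycling cells, where 9.64% of all genes were, and none was higher, where 21.6% were. The lower one was Anxa1, the annexin bound by S100a11, with 867.6 CPM in Pclaf WT and 384.7 in Pclaf KO. The median over the 14 was -0.37, with Anxa2 at 696.2 and 487.4 CPM, Myh9, the myosin bound by S100a4, at 278.5 and 182.2, and the receptor Ager at 610.5 and 871. In Krt8-high cells none of the 14 passed 2-fold in either direction, where 6.35% of genes were lower and 8.75% higher, and in AT2-like cells none did (7.78% and 11.1%). In activated AT2-like cells 1 was lower past 2-fold (8.68% of genes), Tgm2, with 21.09 and 8.87 CPM. In AT1-like cells 1 was higher (8.49% of genes), S100pbp, with 7.935 and 21.27 CPM. Of 9 other EF-hand genes, 8 had at least 10 UMIs, calmodulins among them, and none passed 2-fold in any of the 5 alveolar and cycling classes. In these classes 6.35% to 9.64% of all genes were lower past 2-fold and 8.2% to 21.6% higher. With only 8 genes, the count is not read as a result about them.

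The annexins that bind S100a10 and S100a11 led in Krt8-high cells too. Anxa1 was at 2142 CPM in Krt8-high cells of Pclaf WT and 2281 in Pclaf KO, its first class in both, and Anxa2 at 1717 and 1494, also first. Ager, an AT1 gene, was at 6644 and 10080 CPM in AT1-like cells. Of 6 other S100 genes, S100a1, known from heart muscle, led in ciliated-like cells with 663 and 778.9 CPM, and S100a3, S100a5, S100a7a, S100b and S100z reached at most 56.69 CPM in any class with at least 50 cells.

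The genes whose levels went most like a member's were named by Pearson's r of log2(CPM + 10) over the 42 groups of class and library with at least 50 cells, which share gates and libraries. For S100a14 they were Sfn (0.925), itself a Krt8-high gate marker, and Sprr1a (0.906). For S100a11 the first was Anxa1 (0.910), then Plp2 (0.814), and for S100a6 Anxa1 (0.775), Eif1 and Tmem43. S100g went with Macc1 (0.949), the lipid enzyme Scd1 (0.944) and Nexmif (0.939). S100a8 went with Trem1 (0.850), a neutrophil gate marker, Clec4d and Cxcl2, S100a9 with Aqp9 (0.811), Trem1 and Acod1, and S100a4 with Ppp1r18 (0.885), Lsp1 and Pip4k2a. S100a16 went with Myo10 (0.909), Mcc and Amotl1, S100a13 with Trir (0.780), Rbm42 and Vps52, and S100a10 with Mrpl15 (0.768), Eef1d and Aimp1. Between members, S100a8 and S100a9 had 0.982, and the next pair, S100a6 and S100a11, 0.670.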

How the data were processed

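Libraries were made with 10x 3' v3.1 chemistry, and the deposited values are UMI counts of each gene in each barcode, as the authors' Cell Ranger run gave them, with no normalization. The submitters' processing notes name Cell Ranger 3.1.0 and GRCm38, and the matrix headers name Cell Ranger 5.0.0. Doublets were not removed: Scrublet called 0 cells in each library and was not counted as having worked. Barcodes with more than 200 and fewer than 5000 genes and under 20% mitochondrial UMIs were kept, after the limits in the study's methods read as genes, which left 30187 Pclaf WT (98.4%) and 15637 Pclaf KO cells (91.1%). A cell took the lineage with the most markers detected (at least 2) and the class with the largest share of its markers on (at least 3), and was called cycling with at least 3 cycling markers on. A marker was on where its CPM in the cell was above its mean over both libraries. Activated AT2-like cells had at least 2 further markers on. UMIs were summed per class and library and given as CPM. Ratios have exact conditional 95% intervals of 2 Poisson counts, and genes needed 10 UMIs over both libraries for counts and medians. In the shares of all genes, a gene at 0 UMIs on 1 side of a comparison counted as past 2-fold. A fold limit of 2 was used, with no p-value. Named genes were the members, the 3 genes most like each over classes with 50 cells, of which 2 are not reported here, and fixed lists. The members, lists and markers were chosen with earlier results of these data known. The alternatives were other limits, gates, clusters (scanpy 1.11.5), TMM factors (edgeR 4.0.16), thinning and cells left out. Python 3.11.15, numpy 2.4.6 and scipy 1.17.1 were used, and the ratio was checked on simulated counts.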

Additional observations from a re-analysis of the deposited data

Results flagged for a closer look

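S100a9 went opposite ways in different epithelial classes, with log2 ratios of Pclaf KO over Pclaf WT of -3.25 in AT2-like, -3.29 in Krt8-high, -4.68 in ciliated-like and -3.39 in club-like cells and of 3.28 in cycling cells. The first 4 rest on 6 to 16 UMIs in Pclaf WT, and in the cycling cells 136 of 139 UMIs of Pclaf KO lay in 1 cell. S100a14 was lower in cycling cells, at -2.17, and higher in club-like cells, at 1.68, where Pclaf WT had 6 UMIs. S100g was lower in Krt8-high cells, at -1.11, and higher in ciliated-like cells, at 2.58, where Pclaf WT had 5 UMIs and Sftpc moved with it, from 1744 to 5590 CPM. With 1 library per genotype, none of these differences between classes was tested.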

How the results depend on the processing

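No paired analysis was possible because each group is 1 library. In Krt8-high over AT2-like cells, each of the 20 values (18 with a random 1 in 6 of the KO cells) kept its sign under every one of the 7 alternatives run. The S100a6 ratio in cycling cells, -1.88, kept its sign in 15 of 17 alternatives and S100a14, -2.17, in 15 of 16, and the causes of the shifts were not tested. These ratios chose the members, the alternatives recut the same cells, and some leave out top cells, so the counts support nothing. For S100a6 the ratio was -2.25 with 1 more marker, -2.28 with clusters, 1.71 with the limits read as UMIs (where Pclaf WT has 0 UMIs of S100a14), -1.20 with 1 in 6 KO cells, -1.25 as a mean over cells and -1.33 thinned. Among alternatives chosen after seeing the data it was -0.53 without cells with an immune marker, -2.00 without the 10% of cells with the highest Scrublet scores, -1.45 without the top cell, -1.41 in AT2-like cells only, 0.084 in these without the top 2 cells of each library and -1.11 weighted to the WT makeup. S100a14 gave -2.78 with 1 more marker, -1.64 with 1 in 6 KO cells, -1.49 as a mean over cells, -1.54 thinned, -0.86 without immune-marker cells, -1.64 without the top cell, -1.66 in AT2-like cells only, 0.79 in these without the top 2 cells and -1.48 weighted. Leaving out top cells took a larger share of the few Pclaf WT cells than of the Pclaf KO cells, so the signs there cannot be read. The S100g ratio in Krt8-high cells, -1.11, became 0.98 with the limits read as UMIs, 0.43 without cells with a neutrophil marker, 0.060 without those with an immune marker and 0.19 without the top cell. The neutrophil markers include Hdc and Mxd1, which epithelial classes also had, so that alternative leaves out more than cells with neutrophil RNA. It left 98 and 584 Krt8-high cells and 12 and 129 cycling cells in Pclaf WT and Pclaf KO. In cycling cells S100a8 became -4.76 without neutrophil-marker cells, -6.11 without immune-marker cells, -5.81 without those Scrublet cells and -4.96 without the top cell, and S100a9 -3.76, -3.53 and -2.22 under the first 3. These values rest on very few UMIs, with at most 4 of S100a8 and 1 of S100a9 in Pclaf WT. Medians over the members moved to -1.11 in AT2-like, 0.15 in AT1-like and 0.90 in cycling cells with the limits read as UMIs, to 0.27 in AT1-like cells with clusters, to -0.059 in Krt8-high cells without immune-marker cells, and in cycling cells to -1.61 without neutrophil-marker cells, -1.63 without those Scrublet cells and -0.12 in AT2-like cells only. Scrublet's own threshold called no cell, so leaving out its doublets gave no value. No cluster was named AT2, so the clusters gave no value for AT2-like cells. The 23 cycling cells of Pclaf WT limit every value from them, and a single library per genotype limits all ratios.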

Other observations

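Outside the epithelium, S100a6 was high in mesothelial-like cells, which line the lung's surface, with 4812 CPM in Pclaf WT (74 cells) and 4031 in Pclaf KO (168 cells), and so was S100a10, with 1158 and 1259 CPM. Mesothelial-like cells had 154.4 and 118 CPM of S100a4.

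S100g is X-linked. Xist, the RNA made from the inactive X of female cells, was at 254.4 CPM in the kept cells of Pclaf WT and 498.3 in Pclaf KO, and the Y-linked Ddx3y at 73.97 and 24.04 CPM. Both were thus seen in each library, although the study's methods name male mice, and a difference in the sex makeup of the libraries cannot be told apart from genotype. Of 5 RNAs that stay in the nucleus, 2 counted as higher past 2-fold in cycling cells of Pclaf KO, where 21.6% of all genes did: Meg3, on 0 and 20 UMIs in Pclaf WT and Pclaf KO, and Snhg11, on 1 and 58. The cycling cells held 186721 UMIs of all genes in Pclaf WT and 2666961 in Pclaf KO. Meg3 has no ratio, and 0 UMIs at the Pclaf WT depth cannot show a difference. Genes at 0 UMIs in Pclaf WT are also among the 21.6%. The median log2 ratio of the 5 was 0.78, and Malat1 at 0.48 and Neat1 at -0.17 were within 2-fold.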
